A study of Mus musculus with 2 samples.

Results

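Slfn1, Slfn2, Slfn4 and Slfn5 are 4 of the 32285 genes listed in 2 single-cell RNA sequencing libraries of mouse leukemic promyelocytes. They were taken by symbol as members of the Schlafen family, and they were selected on measured values of these libraries: their levels and shares of positive cells by treatment and along granule maturation. Those values are therefore given as a description, with no test. The gene table also holds 6 related genes (Slfn3, Slfn8, Slfn9, Slfn14, Slfnl1 and Slfn5os), which are given beside them. Slfn10-ps is not analysed here.

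Schlafen proteins are a mammalian family first described in developing T cells, and several members are induced by interferon. The mouse genes lie close together on chromosome 11, and the family falls into short proteins (Slfn1, Slfn2), intermediate ones (Slfn3, Slfn4) and long ones with a helicase-like part (Slfn5, Slfn8, Slfn9, Slfn14). Slfn1 slows the growth of T cells when overproduced. Slfn2 keeps T cells and monocytes quiescent and binds transfer RNA, protecting it from cleavage. Slfn4 is a gene of myeloid cells, and Slfn5 is a nuclear member that acts on transcription.

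Both groups came from mice with PLZF/RARA-transformed cells, PLZF/RARA being a fusion of a transcriptional repressor with retinoic acid receptor alpha that blocks myeloid cells at the promyelocyte stage. The control mice received corn oil with 10% DMSO for 7 days, and the treated mice received 0.8 to 1 mg retinoic acid, both by intraperitoneal injection. Cells of leukemic bone marrow were sorted as CD45.2+, c-Kit+, Gr1+, CD34- and FcγR+ late promyelocytes and profiled with droplet 3′ chemistry at a target of 6000 cells. A cohort held 3 to 5 mice, and neither the number of mice behind each library, their age and strain, nor the way the fusion was introduced is stated. With 1 library a group, none of the differences could be set against replicate spread, and the intervals given are 95% intervals of counting error alone.

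After filtering, the vehicle library held 5476 cells and 99107718 UMIs (unique molecular identifiers, each marking 1 captured RNA molecule) with a median of 16750 per cell, and the library from retinoic acid 7140 cells and 110088247 UMIs with a median of 14604. Kept cells of the libraries shared 11 barcodes, 0.201% of the vehicle and 0.154% of the retinoic acid cells. Primary granule genes, which define promyelocytes, summed to 8291 CPM (UMIs scaled to a common library total) in vehicle cells and to 18863 CPM in retinoic acid cells. Its members went different ways: Elane (62.8 and 7663 CPM), Prtn3 (246.4 and 2819 CPM) and Ms4a3 (849.9 and 2087 CPM) were higher with retinoic acid, Mpo was lower (30857 and 55 UMIs), and Ctsg (-0.11) and Prss57 (-0.26) had log2 ratios nearer 0. Medians of the mitochondrial share were 1.98% and 1.23%. Free RNA was not separated from cellular RNA, and no cell class known to lack Schlafen RNA was identified.

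The start regions of the genes are shown because Slfn1, Slfn2 and Slfn4 shared a sequence there. Slfn1 and Slfn2 both rose along granule maturation, as described further on, while Slfn4 changed less. The 250 bases before each annotated start are RefSeq sequence on GRCm38.p6, plus strand, written 5′ to 3′, and all 4 genes matched the table. Capitals mark the longest run that the 3 windows have in common, which was noticed after the sequences had been read.
Slfn1, chr11:83116570-83116819: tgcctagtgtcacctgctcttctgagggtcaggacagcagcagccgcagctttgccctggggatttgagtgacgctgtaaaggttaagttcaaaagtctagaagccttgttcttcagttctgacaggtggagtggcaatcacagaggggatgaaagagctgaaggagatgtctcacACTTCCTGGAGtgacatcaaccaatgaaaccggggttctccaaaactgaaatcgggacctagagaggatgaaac
Slfn2, chr11:83064862-83065111: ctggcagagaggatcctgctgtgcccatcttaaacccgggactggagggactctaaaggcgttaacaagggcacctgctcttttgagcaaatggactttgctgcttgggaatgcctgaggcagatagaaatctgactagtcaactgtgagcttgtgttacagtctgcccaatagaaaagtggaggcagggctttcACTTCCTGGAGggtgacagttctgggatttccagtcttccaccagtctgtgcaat
Slfn4, chr11:83174936-83175185: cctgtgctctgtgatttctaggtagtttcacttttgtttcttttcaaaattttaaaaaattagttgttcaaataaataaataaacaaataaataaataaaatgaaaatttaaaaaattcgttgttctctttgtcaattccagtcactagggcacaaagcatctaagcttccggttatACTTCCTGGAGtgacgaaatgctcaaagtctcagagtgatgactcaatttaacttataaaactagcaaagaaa
The run ACTTCCTGGAG was searched on both strands and lay in 19 of 27025 windows (0.0703%). The windows of Slfn1, Slfn2 and Slfn4 are among these, since the run was taken from them, so nothing is read from that share. The first base of the run was 74 bases before the start of Slfn1, 55 before that of Slfn2 and 73 before that of Slfn4. It holds the reverse complement of AGGAAGT, a core bound by ETS family factors, which 7.80% of windows contain on either strand and which Slfn3 holds at 2 places without the longer run. The core of the interferon-stimulated response element (GAAA, any 2 bases, GAAA) was found on either strand in 821 windows (3.04%). None of the Slfn1, Slfn2 and Slfn4 windows held it, while Slfn5, Slfn8 and Slfn9 had 1 match each. The Slfn5 match, in capitals, began 155 bases before its RefSeq start and lies inside the longer GENCODE M21 gene.
Slfn5, chr11:82951937-82951966: ccttcaaagtGAAAAAGAAAaaaaaaaaag
A match of letters is not evidence of binding, and its absence concerns this window only.

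Of the 4 genes, Slfn1 had the highest ratio of retinoic acid to vehicle, Slfn4 and Slfn5 were lower with retinoic acid, and Slfn2 was level over all cells. Slfn2 (ENSMUSG00000072620, chr11:83065112-83070678 on GRCm38) had 4090 UMIs or 41.3 CPM (40.0 to 42.6) in the vehicle library. With retinoic acid it had 4534 UMIs or 41.2 CPM (40.0 to 42.4). The log2 ratio of retinoic acid over vehicle was -0.003 (-0.06 to 0.06). Slfn4 (ENSMUSG00000000204, chr11:83175186-83190216) had 4199 UMIs or 42.4 CPM (41.1 to 43.7) in vehicle cells and 2433 UMIs or 22.1 CPM (21.2 to 23.0) with retinoic acid, a log2 ratio of -0.94 (-1.01 to -0.87).

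Slfn1 (ENSMUSG00000078763, chr11:83116849-83122670) was rare in both libraries, with 20 UMIs or 0.202 CPM (0.123 to 0.312) in the vehicle and 212 UMIs or 1.93 CPM (1.68 to 2.20) with retinoic acid. Its log2 ratio was 3.22, with an interval that began at 2.59. Slfn5 (ENSMUSG00000054404, chr11:82951349-82964840) had 53 UMIs or 0.535 CPM (0.401 to 0.700) in vehicle cells and 26 UMIs or 0.236 CPM (0.154 to 0.346) with retinoic acid. The interval of its log2 ratio reached from -1.92 to -0.48. Neither gene came near the 20 CPM set for counting genes that differ. Slfn2 and Slfn4 did, and 0 of these 2 differed 2-fold, where 8.07% of all 5548 genes at that level did (3.03% higher and 5.05% lower with retinoic acid). This contrast helped to choose the genes, so nothing is read from that count.

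Of the other family members, Slfn3 had 0.807 and 1.06 CPM in vehicle and retinoic acid cells (log2 ratio 0.39, -0.03 to 0.83). Slfn8 had 5.58 and 3.67 CPM (-0.60) and Slfn9 5.21 and 7.74 CPM (0.57), while Slfn14, Slfnl1 and Slfn5os had 0 UMIs in both libraries. Members of the family are similar in sequence, and how reads that fit more than 1 of them were counted is not given in the sources used here. The antisense gene Gm20234 overlaps Slfn2 and had 357 UMIs in vehicle cells and 239 with retinoic acid, and it is likewise not stated whether the counting used the strand.

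**Figure D1:**
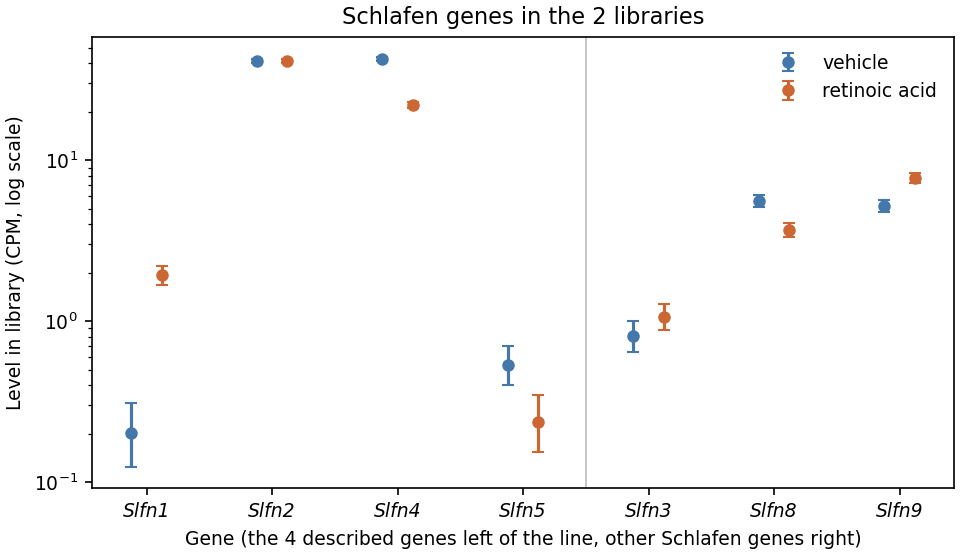
Level of each Schlafen gene in the vehicle and the retinoic acid library, in CPM on a log axis; points are sums over all kept cells and bars are exact Poisson 95% intervals. The Slfn2 points coincide near 41 CPM, Slfn4 lies lower with retinoic acid at 22.1 CPM, and Slfn1 lies higher at 1.93 CPM.

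The share of cells with at least 1 UMI gave the same order of the libraries for Slfn1 and Slfn4. To remove the difference in depth, every cell was thinned to 5000 UMIs, which left out 194 vehicle and 481 retinoic acid cells. Slfn1 was then found in 6 of 5282 vehicle cells (0.114%) and in 85 of 6659 retinoic acid cells (1.28%), a difference of 1.16 percentage points (0.885 to 1.47). That difference was 0.584 points at 8000 UMIs and 1.75 without thinning. Slfn4 was found in 18.9% of vehicle and 10.7% of retinoic acid cells, a difference of -8.19 points (-9.49 to -6.91). Slfn2 was found in 19.8% and 19.2%, a difference of -0.622 points (-2.06 to 0.804), which was 0.056 at 3000 and -3.82 at 8000 UMIs. At least 2 Slfn2 UMIs were present in 3.41% of vehicle and 5.02% of retinoic acid cells. The most in any thinned cell was 5 and 8. Slfn5 was found in 9 and 8 cells, which is not a detectable difference at this depth. Without thinning the shares in vehicle and retinoic acid cells were 44.6% and 37.5% for Slfn2 and 47.0% and 26.6% for Slfn4.

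Retinoic acid cells differed widely in the share of their UMIs from Camp, Ngp, Ltf and Lcn2, which encode secondary granule proteins and lipocalin 2 and are switched on as promyelocytes mature. That granule share had a median of 1.87% in retinoic acid cells and 0.0243% in vehicle cells. Retinoic acid cells were ordered by it and cut into 4 granule groups of 1785 cells, group 1 the lowest, whose median shares were 0.304%, 1.05%, 3.47% and 12.1%. Depth moved with the share, with median UMIs of 17368, 16371, 15103 and 10028, so the shares of positive cells given further on are from thinned cells.

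Slfn2 was higher in each granule group than in the one before it. Its levels were 18.1 CPM (16.6 to 19.6), 22.5 CPM (20.8 to 24.2), 35.7 CPM (33.6 to 38.0) and 118.4 CPM (113.5 to 123.4), and none of these intervals overlap. Group 4 over group 1 gave a log2 ratio of 2.71 (2.58 to 2.85), a 6.54-fold difference. Slfn2 UMIs per cell were 0.323, 0.385, 0.572 and 1.26, so the order also held without dividing by each cell's total. Group 4 held 49.6% of all Slfn2 UMIs. Slfn2 was thus 1 of 248 genes at least 2-fold higher there (4.49% of 5523 genes, with 10.4% lower), and it reached 20 CPM only through the higher groups. Since this contrast also served to choose it, nothing is read from the call.

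Slfn1 came mostly from the cells with the largest granule share. The 4 groups held 2, 1, 30 and 179 Slfn1 UMIs, or 0.0627, 0.0327, 1.05 and 9.42 CPM, and 84.4% of its UMIs came from group 4. The log2 ratio of group 4 over group 1 was 6.91 (5.36 to 10.29), with 2 UMIs in group 1. Slfn4 had 19.4, 20.9, 20.9 and 30.3 CPM. The interval of group 4 (27.9 to 32.9 CPM) lay above those of the other groups, and its log2 ratio over group 1 was 0.64 (0.48 to 0.81). On the scale of UMIs per cell, Slfn4 was at 0.347, 0.359, 0.334 and 0.323, with group 4 the lowest. Slfn5 gave 2, 9, 8 and 7 UMIs. Among the other members, Slfn3 (-0.87, -1.93 to 0.02), Slfn8 (-0.64) and Slfn9 (-0.28, -0.59 to 0.02) had log2 ratios below 0, as the median of all genes did (-0.39). The intervals of Slfn3 and Slfn9 included 0.

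In 10 finer bins of 714 cells, Slfn2 stood at 14.0 CPM in bin 1, between 20.6 and 28.2 CPM in bins 2 to 6, and then at 37.3, 58.0, 95 and 186.3 CPM. Bin 10 over bin 1 gave a log2 ratio of 3.73 (3.51 to 3.97). Slfn1 had 0 UMIs in bin 1 and 115 in bin 10, at least 80.0-fold higher against a floor of 3 counts in bin 1. It lay above the vehicle's 0.202 CPM from bin 6 on, starting at 0.436 CPM there. Slfn4 lay between 17.3 and 22.8 CPM in bins 1 to 8 and at 29.9 and 35.3 CPM in bins 9 and 10, all under its vehicle level of 42.4 CPM.

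**Figure D2:**
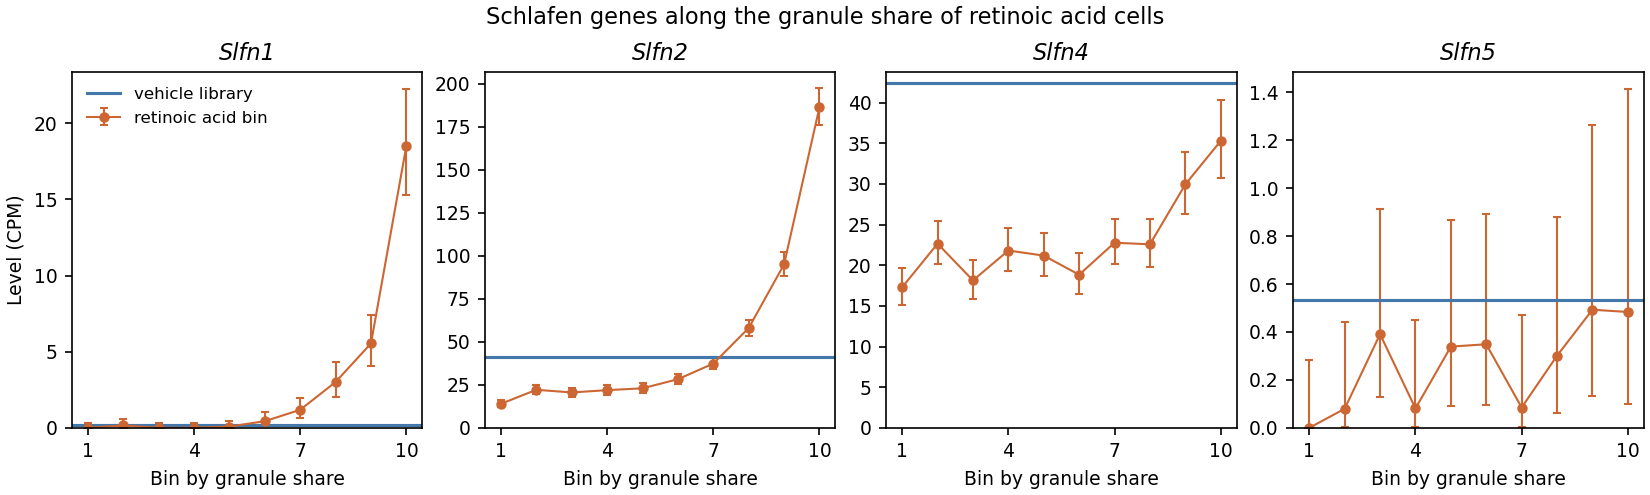
Level in CPM of Slfn1, Slfn2, Slfn4 and Slfn5 in 10 bins of retinoic acid cells ordered by granule share, with exact Poisson 95% intervals; the horizontal line is the gene's level over all vehicle cells. Slfn2 climbs from 14.0 to 186.3 CPM and crosses its vehicle level in the upper bins, Slfn1 appears in the upper bins, and Slfn4 stays below its vehicle line.

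The Slfn2 sum of the retinoic acid library thus joined cells below and cells above the vehicle level. By granule group, the log2 ratio of retinoic acid cells over all vehicle cells was -1.19, -0.88, -0.21 and 1.52 for Slfn2. For Slfn4 it was -1.12, -1.02, -1.02 and -0.48. When the 861 retinoic acid cells with a granule share no higher than 0.2945%, the vehicle's 95th percentile, were set against all vehicle cells, Slfn2 was at 15.3 against 41.3 CPM (log2 ratio -1.43, -1.62 to -1.24). In the same cells Slfn4 was at 18.1 against 42.4 CPM (-1.22), and Slfn5 had 1 UMI against 53. Over all genes, 3.84% of 5604 were at least 2-fold lower in this comparison and the median log2 ratio was 0.11. Slfn2 and Slfn4 reached 20 CPM here only through the vehicle cells. Levels by treatment and granule share also served to choose them, so nothing is read from that share. Slfn1 had 0 UMIs in the 861 cells, which is no detectable difference from the vehicle at this depth. The limit did not make the granule shares equal. The 714 retinoic acid cells with the lowest share had a median of 0.159%, against 0.0243% in all vehicle cells.

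Cells thinned to 5000 UMIs gave the same picture for the share of positive cells. Slfn2 was found in 8.52%, 11.2%, 17.0% and 41.2% of the cells of the 4 groups and in 55.8% of bin 10. Slfn1 was found in 0 of 1667, 0 of 1710, 10 (0.590%) and 75 (4.73%) cells, and in 55 of 615 cells (8.94%) of bin 10. Slfn4 was found in 9.36%, 10.4%, 9.61% and 13.5% of cells. Thinning left out 118, 75, 89 and 199 cells of the 4 groups.

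**Figure D3:**
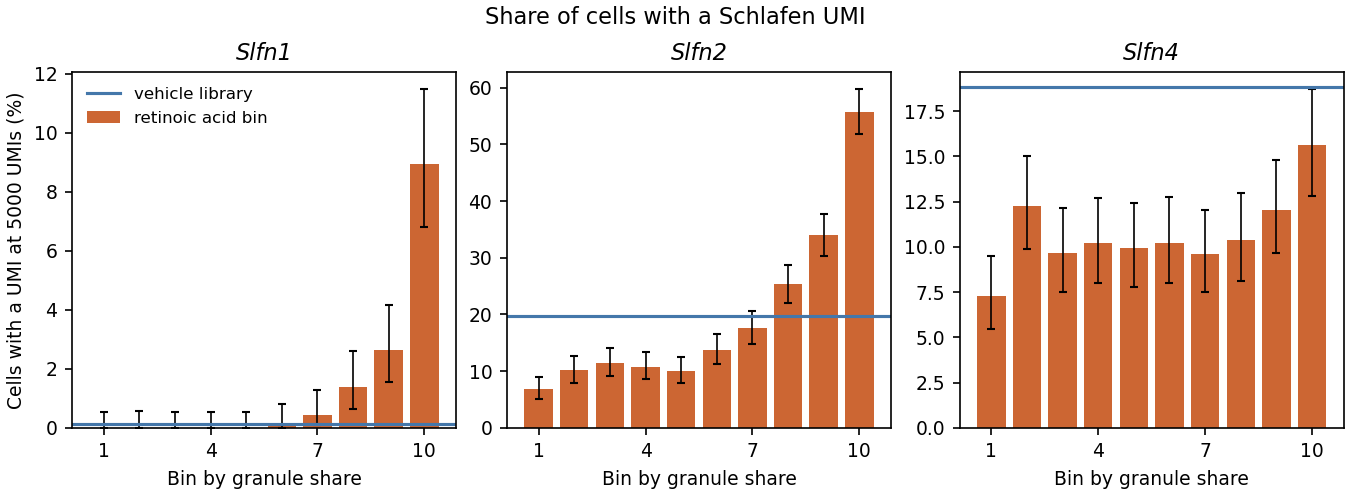
Percent of retinoic acid cells with at least 1 UMI of Slfn1, Slfn2 or Slfn4 after thinning to 5000 UMIs per cell, in 10 bins ordered by granule share, with exact binomial 95% intervals; the horizontal line is the vehicle share. Slfn2 reaches 55.8% and Slfn1 8.94% in bin 10.

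Slfn1 and Slfn2 UMIs were often found in the same cells. Of the 85 Slfn1-positive retinoic acid cells, 68 (80.0%, 69.9 to 87.9) also held Slfn2, against 18.4% of Slfn1-negative cells. Within group 4 the shares were 81.3% (70.7 to 89.4) and 39.3% (36.8 to 41.8). Within bin 10 they were 80.0% (67.0 to 89.6) and 53.4% (49.2 to 57.6), the smallest gap of the 3. Slfn4 was also found more often in Slfn1-positive cells, so this was not particular to Slfn2. It was in 27.1% of Slfn1-positive and 10.5% of Slfn1-negative retinoic acid cells. Within group 4 it was in 28.0% (18.2 to 39.6) and 12.8% (11.1 to 14.6). Within bin 10 it was in 25.5% (14.7 to 39) and 14.6% (11.8 to 17.9), where the intervals overlap. Slfn4-positive retinoic acid cells held Slfn2 in 27.2% of cases against 18.2% of Slfn4-negative cells, while in the vehicle these shares were 18.3% and 20.1%. Cells of 1 library are not replicates, so these shares are a description.

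In vehicle cells Slfn2 and Slfn1 were also higher at the largest granule share, and Slfn4 was not. Slfn2 was at 75.1 CPM in the vehicle bin with the largest granule share and between 32.5 and 45.0 CPM in the other 9 bins. That bin also held 12 of the 20 Slfn1 UMIs of the library. Slfn4 was at 38.0 CPM in it and between 37.9 and 47.2 CPM in the other bins. A further look at the 85 vehicle cells (1.55%) above the retinoic acid library's median granule share was chosen after these values were seen. Slfn2 was at 186.2 CPM in them and at 39.8 CPM in the other 5391 vehicle cells (log2 ratio 2.23, 2.01 to 2.44), in a comparison where 7.23% of 5756 genes were at least 2-fold higher. Slfn1 had 7 UMIs in the 85 cells and 13 in the rest, a log2 ratio of 5.77 (4.16 to 7.16). Slfn4 was at 36.0 CPM in the 85 cells and 42.4 CPM in the rest (-0.22, -0.75 to 0.24). Against the retinoic acid cells above the same limit, at 68.7 CPM, the log2 ratio of Slfn2 in retinoic acid over vehicle cells was -1.44 (-1.65 to -1.22), for Slfn1 it was -0.77 (-1.74 to 0.66), and for Slfn4 -0.57 (-1.03 to -0.03). These 85 cells had a lower median depth (10170 UMIs), 1 of them carried a barcode also kept in the retinoic acid library, and summed Elane, a primary granule protease, was at 43.1 CPM against 5798 CPM in the retinoic acid cells. The part of these features was not tested.

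Cell cycle phases were scored from S and G2/M genes in thinned cells of both libraries together. The phase shares and the levels by phase hold for this gene list. A slightly different list, used earlier on these data, gave other phase shares. G1, S and G2/M cells made up 55.2%, 11.8% and 33.1% of vehicle and 29.4%, 27.4% and 43.2% of retinoic acid cells. Slfn2, which is tied to quiescence in lymphocytes, was highest in G1 in both libraries, at 58.0, 34.0 and 26.3 CPM in vehicle and 86.7, 34.3 and 23.1 CPM in retinoic acid cells. Its log2 ratio of G1 over G2/M was 1.14 and 1.91, in a comparison where 1.72% of vehicle genes and 1.35% of retinoic acid genes were at least 2-fold higher in G1. Slfn4 differed less, at 0.38 and 0.55, and in UMIs per cell it was lower in G1 than in G2/M. Vehicle cells held 2062 Slfn4 UMIs in 2913 G1 cells and 1602 in 1747 G2/M cells. Retinoic acid cells held 638 in 1959 G1 cells and 1070 in 2876 G2/M cells. Slfn2 stayed higher per cell in G1, with 2499 and 1146 UMIs in the same vehicle cells and 2013 and 1320 in the retinoic acid cells. Within each phase, Slfn2 was still higher in granule group 4 than in group 1, with log2 ratios of 2.71 in G1 (29.7 and 194.3 CPM), 1.77 in S and 2.15 in G2/M cells. For Slfn4 it was 1.08 in G1 and 0.25 and 0.15 in the other phases. Of the Slfn1 UMIs in retinoic acid cells with at least 5000 UMIs, 160 were in G1, 10 in S and 14 in G2/M cells, and G1 made up 46.3% of group 4 and 25.1% of group 1. Between the libraries, Slfn4 was lower with retinoic acid in every phase (-0.80, -0.82 and -0.97). Slfn2 was higher in G1 (0.58), near level in S (0.01) and slightly lower in G2/M (-0.19, -0.30 to -0.07). Its level in retinoic acid G1 cells was 29.7, 40.1, 60.7 and 194.3 CPM over the 4 granule groups, against 58.0 CPM in vehicle G1 cells. G1 cells of groups 1 and 2 thus lay below the vehicle level.

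**Figure D4:**
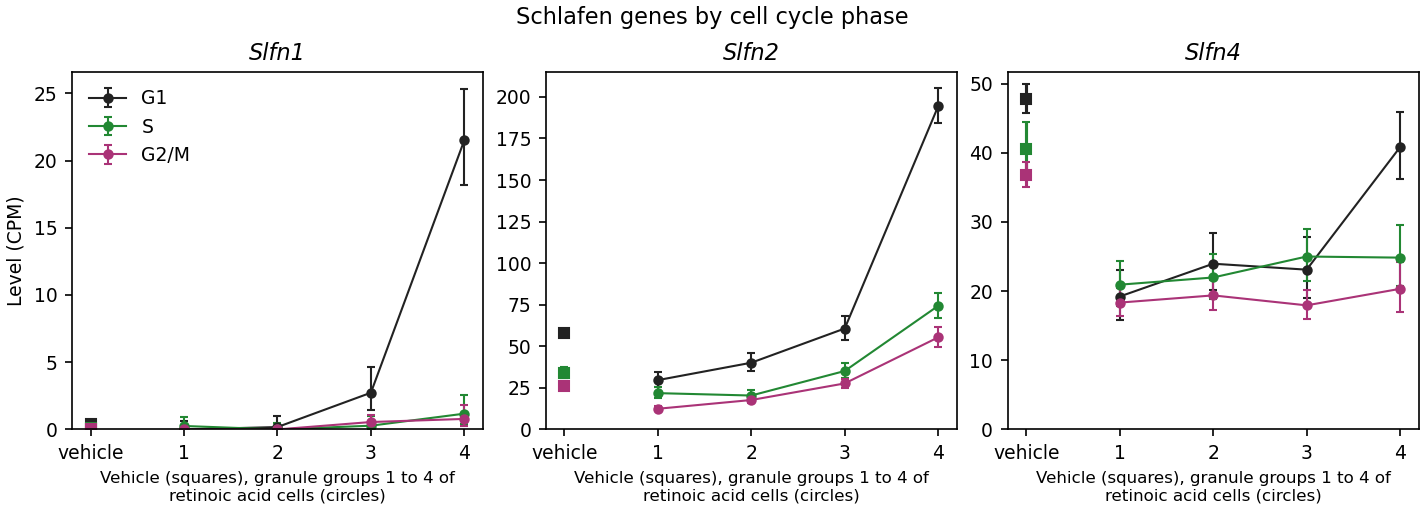
Level in CPM of Slfn1, Slfn2 and Slfn4 by cell cycle phase and granule group in retinoic acid cells, with exact Poisson 95% intervals; squares show all vehicle cells of the phase. Slfn2 is highest in G1 cells of group 4, at 194.3 CPM.

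Genes that make, sense or answer interferon were listed because Schlafen genes are commonly interferon-induced. Of 11 interferon genes none reached 20 CPM. Of 8 receptor and kinase genes 3 did and none differed 2-fold between libraries, where 8.07% of all genes did, as with Ifngr1, an interferon gamma receptor chain (0.40), and Jak1, a receptor kinase (0.51). Of 9 transcription factors 3 did and none differed 2-fold, as with Irf2, an interferon regulatory factor (0.43). Of 45 interferon-stimulated genes, 43 were in the table and 8 reached 20 CPM. Ifi27l2a was higher with retinoic acid (24.8 to 64.8 CPM, 1.39) and Bst2, a membrane protein that holds back budding viruses, was lower (263.1 to 124.3 CPM, -1.08). These were 1 of 8 in each direction, where 3.03% of all genes were higher and 5.05% lower, and the median of the 8 was -0.06 against 0.01 for all genes. The interferon-stimulated genes under 20 CPM were not counted, and some of them differed in either direction. In vehicle and retinoic acid cells, Ifi47 had 237 and 1340 UMIs (2.345) and Ifih1 261 and 1317 (2.18). Zbp1 had 260 and 37 UMIs (-2.95) and Oasl1 87 and 23 (-2.05). From granule group 1 to group 4, 1 of 11 was at least 2-fold higher (Ifi27l2a, 2.40) and 2 were lower (Bst2, -1.29, and Gbp7, -1.35), where 4.49% of all genes were higher and 10.4% lower, with a median of -0.35 against -0.39 for all genes. Gbp7 reached 20 CPM only through group 1.

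Of 11 genes of quiescence and growth arrest, 5 reached 20 CPM between the libraries, and 1 of these, the cell cycle inhibitor Cdkn2d, was 2-fold higher with retinoic acid (16.9 to 37.6 CPM, 1.15), where 3.03% of all genes were. The median of the 5 was -0.21 against 0.01 for all genes, with Btg1 at -0.90, Btg2 at -0.62, Cdkn1a at -0.21 and Tob1 at -0.10. Between granule group 4 and group 1, 5 of the 11 reached 20 CPM again, with Cdkn1b in the place of Btg1. Of these, 4 were at least 2-fold higher in group 4, where 4.49% of all genes were: Cdkn2d (2.61), the p53 target Cdkn1a (1.15) and the antiproliferative genes Tob1 (1.15) and Btg2 (1.12). Cdkn1b, another cell cycle inhibitor, was at 0.76. The median of the 5 was 1.15 against -0.39 for all genes, and the 6 genes under 20 CPM were not counted. Btg2, Cdkn1b and Cdkn2d reached 20 CPM only through group 4, where they were higher. Cdkn2d likewise reached it between the libraries only through the retinoic acid cells. Nothing is therefore read from these counts and medians. The lists were written with results of these data already known. Of 4 genes of tRNA cleavage, 2 reached 20 CPM. Nsun2, a tRNA methyltransferase, had a log2 ratio of -0.19 between libraries and -1.52 between group 4 and group 1, and Rnh1, an inhibitor of ribonucleases, -0.43 and -0.07. Under that limit, the ribonuclease gene Ang had 446 and 85 UMIs in vehicle and retinoic acid cells (-2.54), and the tRNA methyltransferase gene Trdmt1 618 and 766 UMIs (0.16).

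Over the 10 granule bins, the genes whose level was most like that of Slfn2 were Mxd1 (Pearson r = 0.996), Mgst1 (0.995), Zyx (0.995), Rhou (0.994) and Cd9 (0.993), out of 5132 genes at or above 20 CPM. For Slfn4 they were Trmt1 (0.973), Neat1 (0.963), Ifitm3 (0.951), Ankrd9 (0.944) and Nfe2 (0.943). The points share 1 library and an ordering by granule share, and 8.32% of these 5132 genes had r above 0.9 with Slfn2 and 1.81% with Slfn4, so no p is given.

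Markers of other cell types that the gate could hold were read beside these levels. The summed level of 10 monocyte markers was 13.1 CPM in vehicle and 10.7 CPM in retinoic acid cells, and 9.62, 9.06, 9.13 and 17.2 CPM over the 4 granule groups, with none at 20 CPM. Cd14 made up most of the group 4 sum (3.45 CPM in group 1 and 12.9 CPM in group 4). F13a1 (2.04 and 0.263 CPM) and Ccr2 (3.60 and 3.16 CPM) were lower in group 4. Of 12 T and NK cell markers, Cd3e, Cd4, Cd8a and Ncr1 had 0 UMIs in both libraries, and nearly all of the summed 1296 and 578.5 CPM came from Nkg7 (1283 and 575 CPM). The T and NK cell sum was 626 CPM in group 1 and 421.4 CPM in group 4. The 8 B cell markers summed to 13.75 and 48.7 CPM, and to 43.7, 53.0, 55.1 and 40.6 CPM over the groups. Ighm, the heavy chain of immunoglobulin M, made up most of the difference (4.98 and 42.6 CPM, log2 ratio 3.09), Cd79a had 198 and 212 UMIs, and Pax5, a factor that defines B cells, had 0 UMIs in both libraries. Macrophage markers summed to 202.6 and 297.2 CPM in the 2 libraries, and to 187.6, 289.9, 404 and 332.4 CPM over the granule groups. Nearly all of this came from Vcam1 and Adgre1, which went opposite ways. Vcam1 was at 128.8 CPM in vehicle and 291.7 CPM in retinoic acid cells, and Adgre1 at 73.7 and 5.15 CPM. Dendritic cell markers summed to 269.1 and 125.6 CPM, and from 156.8 CPM in group 1 to 64.6 CPM in group 4. Nearly all of that sum was Bst2 (263.1 and 124.3 CPM in the 2 libraries), which is also listed as interferon-stimulated. Mast cell and basophil markers summed to 739.1 and 66.4 CPM, and to 84.7, 85.5, 57.6 and 18.4 CPM over the groups. Eosinophil markers summed to 116.5 and 32.2 CPM, and to 92, 7.29, 8.26 and 7.58 CPM over the groups. Erythroid markers summed to 4.22 and 0.808 CPM. Several of these sums thus differed between the libraries and along the granule share, as the Schlafen genes did. Their part in the Schlafen levels was not tested. Near the Schlafen genes on chromosome 11, the 6 neighbours at 20 CPM did not differ 2-fold between libraries, where 8.07% of all genes did. With so few genes, nothing is read from that count. Their log2 ratios were 0.57 for 1700020L24Rik (67.9 and 100.7 CPM), 0.29 for Rad51d, 0.16 for Zfp830, -0.16 for AI662270, -0.23 for Taf15 and -0.43 for Nle1. From granule group 1 to group 4, Nle1 went from 18.1 to 7.74 CPM (-1.22). It was under 20 CPM on both sides there, so it was not counted among the genes that differ.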

How the data were processed

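The authors deposited an unnormalised count matrix of UMIs for each library, and per the file headers the software was Cell Ranger 4.0.0. The submitters' processing notes name mm10 and GRCm38.p4. Cells were kept with at least 1000 UMIs, 500 genes and no more than 10% of UMIs from mitochondrial genes, leaving out 310 barcodes of the vehicle and 276 of the treated library. Scrublet called 1 and 7 cells doublets, so it was taken as not having worked and none were removed. Counts were summed over cells and given as CPM (Python 3.11.15, scanpy 1.11.5, scipy 1.17.1), with exact Poisson intervals for sums, Clopper-Pearson intervals for shares and Newcombe's for their differences. Log2 ratios had 0.5 counts added, with an exact binomial interval; a gene at 0 was set to a floor of 3 counts, and intervals and floors cover counting error only. Genes with at least 20 CPM on either side were counted as differing at 2-fold. TMM factors came from edgeR 4.0.16. Cells of a library are not replicates, so no test was made; the ratio code was tested on simulated data. Symbols were matched to GENCODE M21 (32158 of 32285 identifiers). The members and lists were chosen with earlier results of these data known. Named genes were the members, other Schlafen genes, list genes at or above 20 CPM and some under it, the 5 genes most like each member at that level, and neighbours. Mx1, Mx2 and Azu1 are not analysed here.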

Additional observations from a re-analysis of the deposited data

How the results depend on the processing

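Of 112 recomputed values, 77 stayed within the counting interval (for gene counts, a set ratio), 34 moved beyond it and 1 reversed. No paired analysis was possible because only 1 library stood for each treatment. The log2 ratio between libraries became 0.077 (TMM), 0.31 (equal weight for every cell) and 0.09 (a maturation gene list left out of the total) for Slfn2, and -0.86, -0.82 and -0.85 for Slfn4. The difference in positive cells, in percentage points at 3000 and 8000 UMIs and without thinning, was 0.837, 0.584 and 1.75 for Slfn1 and -5.64, -12.02 and -20.40 for Slfn4. For Slfn2 it was -3.82 at 8000 UMIs and -7.08 without thinning, and for Slfn5 -0.458 without thinning. For granule group 4 over group 1, Slfn1 was 5.10 in thinned cells. Group 1 held 0 Slfn1 UMIs there, so this is a bound from the floor of 3 counts and not a smaller ratio. Slfn2 was 2.89 without granule genes in the total, 3.05 without the maturation list, 2.90 with groups by that list, 3.73 with 10 groups and 2.89 in G1 cells cut anew into 4 groups by their own granule share. Slfn4 was 0.82, 0.98, 1.03 (10 groups) and 1.18 (G1 cells cut anew). Slfn5 turned to -0.47 in G1 cells cut anew, with few UMIs. The next values set retinoic acid cells under a limit on granule share against all vehicle cells. Slfn2 was -1.89 with groups by the maturation list. With the vehicle median as limit, only 6 retinoic acid cells with 72280 UMIs remained. Slfn2 was -0.99 there, and the Slfn4 value of -0.03 is a bound, with the floor of 3 counts in place of no UMIs. Nothing is read from either value. Genes differing 2-fold between libraries were 923 at 5 CPM, 133 at 100 CPM and 6081 with no limit, and between granule groups 1478, 258 and 4651. The cause of these shifts was not tested. Slfn1 gave no value under either alternative limit on granule share, nor did Slfn5 with 10 groups or the vehicle median. Slfn5 rests on 26 retinoic acid UMIs in all. Slfn1 had 0 UMIs in the retinoic acid cells under the main limit, where no difference was detectable at this depth.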

Other observations

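Vehicle cells were also split by 2 genes of their own, Mpo (the myeloperoxidase of primary granules) and Cpa3 (a mast cell and progenitor protease), each called at 2 or more UMIs after thinning to 5000 UMIs. The 599 cells with Mpo only had 31.9 CPM of Slfn2 and the 201 with both had 32.2 CPM, while the 2151 with Cpa3 only had 44.2 CPM and the 2331 with neither had 42.0 CPM. Slfn4 was at 35.9, 37.9, 46.5 and 40.6 CPM in the same order. Slfn5 was at 0.614, 0.480, 0.864 and 0.226 CPM, on 8, 2, 32 and 10 UMIs, and Slfn1 had 0, 0, 8 and 9 UMIs. The share of all genes that differ between these classes was not computed, so nothing is read from these differences.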
